A study of Mus musculus with 6 samples.

Results

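The genes described here are the mouse matrix metalloproteinases (Mmp), the secreted ADAMTS metalloproteinases (Adamts) and the tissue inhibitors of metalloproteinases (Timp). They were chosen by symbol alone, as Mmp with a number and an optional a or b, Adamts with a number, and Timp1 to Timp4. Of the 20007 gene identifiers in the count tables, 45 met this rule, of which 22 were Mmp, 19 Adamts and 4 Timp genes. Mmp20, whose symbol has the same form, was not analysed here. RNA sequencing on a BGISEQ-500 instrument had been done on total RNA of 6 libraries from KM mice, 2 in each of 3 groups. MEFs were embryonic fibroblasts, with a labelled age of 13.5 days post coitum. CiSCs were MEFs that had been passaged and then induced with small molecules, which the labels do not name, towards a Sertoli cell state. MSCs were Sertoli cells, the somatic support cells of the seminiferous tubule, cultured from testes at postnatal day 60. The design sets the induced cells beside both the fibroblasts they came from and cultured Sertoli cells. There was no library of passaged MEFs kept without the small molecules, so an effect of passage and culture cannot be told apart from one of the compounds. MEFs and MSCs also differed in age and tissue.

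Matrix metalloproteinases are zinc enzymes that cleave collagens, other matrix proteins and many secreted or membrane proteins. ADAMTS enzymes are related zinc proteinases that bind matrix through thrombospondin repeats, and they include the enzymes that trim procollagens and those that cleave the large hyaluronan-binding proteoglycans. TIMPs are small secreted proteins that occupy the active sites of these enzymes. In the testis the balance of these proteins takes part in turning over the basement membrane under the Sertoli cells and in remodelling their junctions.

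The libraries held between 19294671 and 20418587 counts. The 12 leukocyte and macrophage markers examined summed to 11949 and 19238 CPM (counts scaled to library size, with sizes adjusted by the trimmed mean of M values) in MEFs, to 34.4 and 50.7 CPM in CiSCs and to 1396 and 1313 CPM in MSCs. MSCs carried the Sertoli cell transcription factor genes Gata4 (239.8 and 264.8 CPM) and Wt1 (175 and 225 CPM), but also Cyp11a1, the side-chain cleavage enzyme gene of steroid-producing cells (773 and 793.5 CPM), and Fshr, the follicle-stimulating hormone receptor gene of Sertoli cells, was at 0.213 and 0.217 CPM. The 12 Sertoli markers examined summed to 194 and 227 CPM in MEFs, 4853 and 4123 CPM in CiSCs and 6106 and 9013 CPM in MSCs. In CiSCs against MEFs 3 of the 10 tested were higher and 1 lower (median log2 fold change 1.41), and most of the CiSC sum was Clu, the clusterin gene (4734 and 4020.2 CPM). In MSCs against MEFs 9 of the 10 were higher and 0 lower (median 8.63). CiSCs against MSCs had 0 higher and 9 lower (median -4.74). Over all tested genes 19.6% were higher and 21.3% lower in CiSCs than in MEFs. These shares were 22.5% and 20.0% in MSCs against MEFs, and 17.7% and 25.1% in CiSCs against MSCs. In CiSCs, Wt1 stood at 22.4 and 21.1 CPM, Gata4 at 0.0954 and 0.0936 CPM and Dmrt1, another Sertoli cell regulator, at 0 and 0.140 CPM. The 9 fibroblast markers summed to 23328 and 24826 CPM in MEFs, 28338 and 28355 CPM in CiSCs and 38272 and 41088 CPM in MSCs. In MSCs against MEFs 3 of them were higher and 3 lower. The 6 peritubular myoid and smooth muscle markers summed to 3654 and 3270 CPM in MEFs and 3934 and 3746 CPM in MSCs. The 6 endothelial markers, at a sum of 92.6 and 97.1 CPM in MSCs, were all higher there than in MEFs. The part of such cells in the MSC levels was not tested. These are bulk libraries, in which fewer cells of a type and less RNA per cell cannot be told apart.

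Of the 45 genes, 37 had enough counts to be tested. The test was edgeR's quasi-likelihood test on all 15272 genes that passed the filter, and every adjusted p below is its Benjamini-Hochberg value over those genes unless another method is named. Levels are CPM, given for the first and then the second library of a group, or as mean ± SD (n = 2). Changes are log2 fold changes ± SE. Nothing in the labels ties the 2 libraries of a group to different cultures or mice, and the p-values then measure only the spread between libraries that may be technical repeats. The 8 genes not tested were Adamts8, Adamts13, Adamts16, Adamts18, Adamts19, Mmp1a, Mmp21 and Timp4. They did not pass the filter on low counts, and none had more than 11 reads in any library. Adamts19 had 0 and 1 reads in MEFs, 8 and 8.16 in CiSCs and 0 and 3 in MSCs.

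The members shifted in both directions in each comparison. In CiSCs against MEFs, 22 of the 37 tested genes passed (59.5%, against 40.9% of all tested genes), of which 11 were higher (29.7%, against 19.6%) and 11 were lower (29.7%, against 21.3%). In MSCs against MEFs, 26 passed (70.3%, against 42.5%), of which 20 were higher (54.1%, against 22.5%) and 6 were lower (16.2%, against 20.0%). In CiSCs against MSCs, 26 passed (70.3%, against 42.8%), of which 11 were higher (29.7%, against 17.7%) and 15 were lower (40.5%, against 25.1%). The libraries of the groups did not overlap for 29 of the 37 genes in CiSCs against MEFs (78.4%, against 71.1% of all tested genes), for 32 in MSCs against MEFs (86.5%, against 72.5%) and for 34 in CiSCs against MSCs (91.9%, against 80.9%). The filter keeps a gene that is high in only 1 group, so these shares are a description of the genes that passed it. The 2 comparisons with MEFs share the MEF libraries. By family, 8 of 14 Adamts genes (57.1%) were higher and 3 (21.4%) lower in CiSCs than in MEFs. Of 20 Mmp genes, 3 (15%) were higher and 7 (35%) lower. Over all tested genes these shares were 19.6% higher and 21.3% lower. The 8 Adamts rises included Adamts3, Adamts4, Adamts7, Adamts9, Adamts10 and Adamts12, whose calls are limited as given below. The median log2 fold change of the 37 genes was 0.14 in CiSCs against MEFs, 0.63 in MSCs against MEFs and -0.34 in CiSCs against MSCs, beside medians of -0.0022, 0.01 and -0.03 over all tested genes. Tested against a fold of 1.5, the calls of Adamts2, Adamts3, Adamts4, Adamts7 and Adamts10 in CiSCs against MEFs were lost, as were those of Adamts6, Adamts7, Mmp23 and Timp3 in MSCs against MEFs and of Adamts1, Adamts4, Adamts10, Adamts17 and Mmp25 in CiSCs against MSCs. A fit of only the groups compared ended the calls of Adamts3 (adjusted p = 0.0740) and Adamts10 (0.105) in CiSCs against MEFs. In MSCs against MEFs it ended those of Adamts7 (0.0534) and Mmp23 (0.0535) and added Mmp1b (0.0417). In CiSCs against MSCs it added calls of Adamts9 (3.09e-04), Mmp7 (0.00262), Timp3 (0.00604) and Mmp23 (0.0339). The count of 11 genes higher in CiSCs than in MEFs became 7 without the first CiSC library and 5 without the second. The count of 6 lower in MSCs than in MEFs became 3 without the first MSC library. The 11 genes higher in CiSCs than in MSCs became 7 without the first CiSC library, and 6 without the second CiSC library, the first MSC library or the second MSC library.

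**Figure D1:**
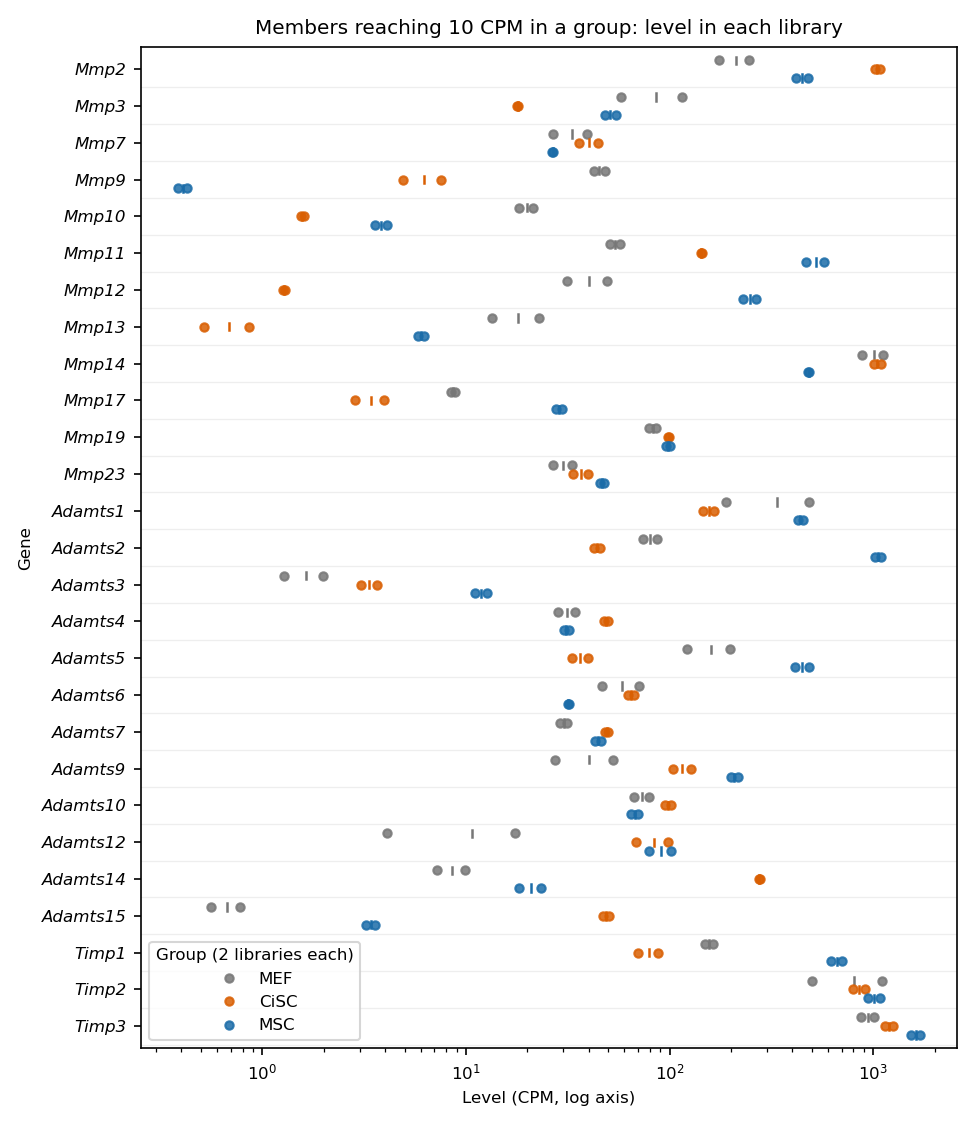
Level in CPM (log axis) of the 27 genes that reached a mean of 10 CPM in at least 1 group, 1 point per library and a tick at each group mean (grey MEFs, orange CiSCs, blue MSCs). The CiSC points lie farthest right for Mmp2, Adamts14 and Adamts15, the MSC points for Mmp11, Mmp12, Adamts2 and Timp1, and the MEF points for Mmp3, Mmp9, Mmp10 and Mmp13.

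A run of Mmp genes lies side by side on chromosome 9. In the order of the RefSeq annotation of GRCm38 these are Mmp13, Mmp12, Mmp1b, Mmp3, Mmp1a, Mmp10, Mmp8, Mmp27, Mmp20 and Mmp7, of which 9 are in the tables. The RefSeq promoter table (GRCm38.p6, 250 bases before to 50 after each start) held a window for all 9 of them and for 22 other members. The remaining members, among them Mmp2, Mmp9 and Adamts15, had no window and were not searched. The AP-1 heptamer TGACTCA, searched on both strands (its reverse complement is TGAGTCA), is a classical element of inducible Mmp promoters. It occurred in a window of 7 of the 9 clustered genes and in none of the windows of the 22 other members, against 1607 of the 27025 genes with a window (5.95%). The 100 bases before the annotated start are printed for the clustered genes that the results below turn on, 5′ to 3′ on the coding strand, with the heptamer in capitals. Mmp8 and Mmp27, which lack it, are shown beside them. All 7 lie on the plus strand of chromosome 9. Mmp12 has more than 1 annotated start, and the stretch shown precedes the downstream one, since the window of the upstream start holds no match. Mmp7 also has a further start, for which the 100 bases before it hold no match.
Mmp13, chr9:7272414-7272513: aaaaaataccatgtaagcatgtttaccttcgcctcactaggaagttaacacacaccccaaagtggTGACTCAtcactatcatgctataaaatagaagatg
Mmp12, chr9:7347274-7347373: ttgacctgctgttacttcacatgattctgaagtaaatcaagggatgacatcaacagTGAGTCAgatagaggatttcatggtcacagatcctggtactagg
Mmp3, chr9:7445722-7445821: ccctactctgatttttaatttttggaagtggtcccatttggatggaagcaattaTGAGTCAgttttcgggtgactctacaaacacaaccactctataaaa
Mmp10, chr9:7502242-7502341: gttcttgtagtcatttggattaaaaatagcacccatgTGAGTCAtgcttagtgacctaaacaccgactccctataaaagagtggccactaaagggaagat
Mmp8, chr9:7558329-7558428: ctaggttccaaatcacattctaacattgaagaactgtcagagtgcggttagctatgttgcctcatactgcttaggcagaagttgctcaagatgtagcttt
Mmp27, chr9:7571296-7571395: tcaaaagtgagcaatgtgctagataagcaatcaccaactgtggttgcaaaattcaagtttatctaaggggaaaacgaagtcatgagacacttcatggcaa
Mmp7, chr9:7691990-7692089: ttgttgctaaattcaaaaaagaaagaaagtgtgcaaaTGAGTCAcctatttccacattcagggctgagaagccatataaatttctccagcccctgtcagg
The first base of the heptamer stands 35 bases before the start in Mmp13, 44 in Mmp12, 46 in Mmp3, 63 in Mmp10 and 63 in Mmp7. A match is a run of letters in these windows and was not tested as a binding site. Mmp1a and Mmp1b, both among the 7 genes with a match, are close copies, so the matches are not all independent of each other.

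The 4 clustered genes Mmp13, Mmp12, Mmp3 and Mmp10 were all lower in CiSCs than in MEFs. Mmp13 encodes collagenase 3, the main interstitial collagenase of rodents. It stood at 13.4 and 22.8 CPM in MEFs, 0.859 and 0.515 CPM in CiSCs and 5.80 and 6.19 CPM in MSCs, so that the groups did not overlap (log2 fold change -4.71 ± 0.39 in CiSCs against MEFs, adjusted p = 2.00e-04). Mmp10, the stromelysin 2 gene, followed the same order, with 21.4 and 18.3 CPM in MEFs, 1.54 and 1.60 CPM in CiSCs and 3.57 and 4.11 CPM in MSCs. Its log2 fold change was -3.67 ± 0.21 in CiSCs against MEFs (adjusted p = 5.06e-05) and -2.37 ± 0.20 in MSCs against MEFs (adjusted p = 2.08e-04). Mmp13 was also lower in MSCs than in MEFs (-1.59 ± 0.31, adjusted p = 0.00757), a call lost without the first MSC library (adjusted p = 0.0703) or the second (0.0606).

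Mmp3, which encodes stromelysin 1, a broad matrix proteinase that also activates other MMP proenzymes, was at 57.6 and 114.5 CPM in MEFs, 17.9 and 17.95 CPM in CiSCs and 54.3 and 47.9 CPM in MSCs. Both CiSC libraries lay below every other library, and the log2 fold change against MEFs was -2.26 ± 0.32 (adjusted p = 0.00209). CiSCs were also lower than MSCs (-1.51 ± 0.32, adjusted p = 0.00913). This call was lost without the first CiSC library (log2 fold change -1.49), the second CiSC library (-1.51) or the first MSC library (-1.42). MSCs against MEFs did not pass (-0.75 ± 0.31, adjusted p = 0.0915), but did without the first MEF library (adjusted p = 8.18e-05) and by DESeq2 (0.0457).

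Mmp12, the macrophage metalloelastase gene, had its lowest level in CiSCs and its highest in MSCs. It stood at 31.3 and 49.1 CPM in MEFs, 1.29 and 1.26 CPM in CiSCs and 228 and 266 CPM in MSCs. The fall in CiSCs against MEFs was -4.97 ± 0.29 (adjusted p = 5.22e-05), and the rise in MSCs against MEFs 2.62 ± 0.23 (adjusted p = 2.74e-04). CiSCs and MSCs differed by -7.59 ± 0.31 (adjusted p = 1.45e-05), a 194-fold difference in mean CPM. The leukocyte and macrophage markers moved with Mmp12 in the first comparison and against it in the second. All 12 were lower in CiSCs than in MEFs (median log2 fold change -8.65) and all 12 were lower in MSCs than in MEFs (median -3.27). Their part in the fall of Mmp12 in CiSCs was not tested.

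In the rest of the run, Mmp8 and Mmp27 were low in level but highest in MSCs. Mmp8, the neutrophil collagenase gene, was at 0.303 and 1.35 CPM in MEFs, 0.334 and 0.140 CPM in CiSCs and 4.41 and 4.67 CPM in MSCs. It was higher in MSCs than in MEFs (log2 fold change 2.45 ± 0.62, adjusted p = 0.0199), a call lost without the first MSC library (0.0951) or the second (0.103), and lower in CiSCs than in MSCs (-4.23 ± 0.72, adjusted p = 0.00387). The 7 neutrophil markers examined summed to 20.9 and 45.6 CPM in MEFs, 3.09 and 2.78 CPM in CiSCs and 3.81 and 4.55 CPM in MSCs, led in MSCs by Csf3r and Cxcr2, while S100a9 and Ly6g had 0 reads there. Their part in the level of Mmp8 was not tested. Mmp27, a little-studied family member, had 163 and 126 reads in the MSC libraries, 5 and 8 in MEFs and 0 and 2 in CiSCs, and passed in MSCs against MEFs (adjusted p = 6.11e-04) and in CiSCs against MSCs (2.19e-04). Mmp8 did not pass in CiSCs against MEFs (adjusted p = 0.119), but did without the first MEF library (0.00414). Mmp27 lay at the threshold there (adjusted p = 0.0501), and passed without the first MEF library (0.0275), without the second CiSC library (0.0348) and by DESeq2 (0.0456).

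Mmp7, the matrilysin gene, carries the heptamer before 1 of its starts. It stood at 26.7 and 39.4 CPM in MEFs, 44.4 and 35.7 CPM in CiSCs and 26.7 and 26.5 CPM in MSCs. With all libraries fitted together, it passed in none of the comparisons by edgeR. Its difference between CiSCs and MEFs was 0.28 ± 0.21 (adjusted p = 0.337) and depended on the MEF library used: without the second it was 0.58 (adjusted p = 0.0143), and without the first it was -0.0048 (adjusted p = 0.986). MSCs against MEFs passed without the first MEF library (-0.60, adjusted p = 0.00871). CiSCs against MSCs (0.59 ± 0.22, adjusted p = 0.0676) passed without the first MEF library (0.00398) or the second (0.00361). Mmp1b, at 0.910 and 0.572 CPM in MEFs and at most 0.382 CPM elsewhere, did not pass either, and Mmp1a had 1 read in all. These genes are close copies of each other, so reads may have been divided between them. Mmp1b also shares 157 bases of exon with Mmp12 on the opposite strand in the GENCODE M21 annotation, and the strand setting of the counting is not given in the sources used here.

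**Figure D2:**
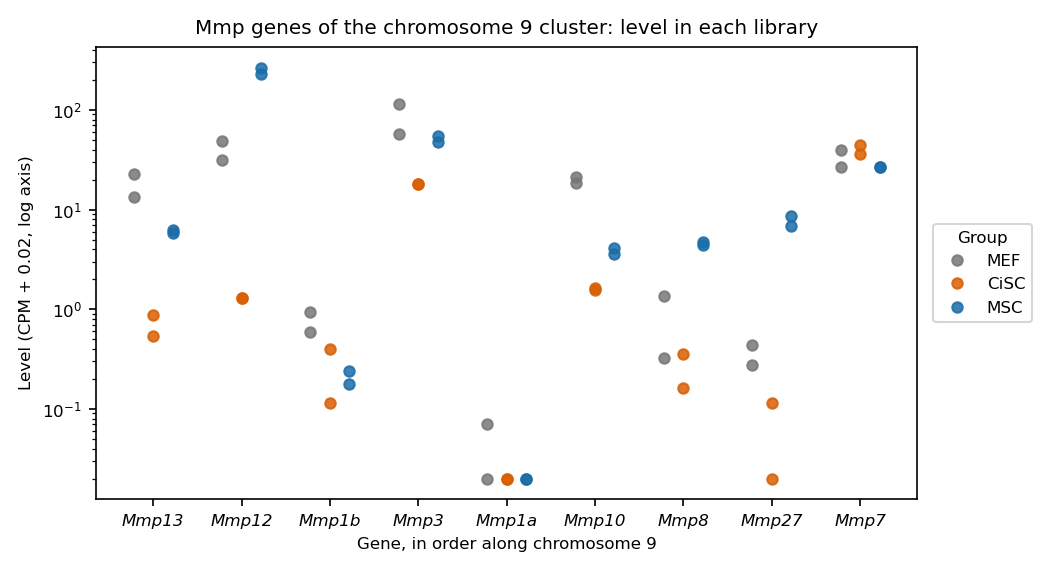
Level in CPM plus 0.02 (log axis) of the 9 clustered genes in their order along chromosome 9, 1 point per library (grey MEFs, orange CiSCs, blue MSCs). For Mmp13, Mmp12, Mmp3 and Mmp10 the CiSC points lie below the others, Mmp8 and Mmp27 are highest in MSCs, and the Mmp7 groups lie close together.

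The gelatinase genes, whose products cleave denatured collagen and basement membrane collagen IV, parted in CiSCs. Mmp2, a gelatinase typical of stromal cells, stood at 175 and 246 CPM in MEFs, 1019.5 and 1078 CPM in CiSCs and 418 and 480.0 CPM in MSCs. The CiSC libraries lay above all others, with log2 fold changes of 2.31 ± 0.20 against MEFs (adjusted p = 2.56e-04) and 1.22 ± 0.19 against MSCs (adjusted p = 0.00288). MSCs were higher than MEFs as well (1.09 ± 0.19, adjusted p = 0.00512), a call lost without the second MSC library (adjusted p = 0.0520). Mmp9, the gelatinase gene typical of myeloid cells, ran the other way, at 42.4 and 48.0 CPM in MEFs, 4.91 and 7.57 CPM in CiSCs and 0.425 and 0.385 CPM in MSCs. It was lower than in MEFs in CiSCs (-2.85 ± 0.23, adjusted p = 1.98e-04) and in MSCs (-6.79 ± 0.32, adjusted p = 2.67e-05), and higher in CiSCs than in MSCs (3.93 ± 0.33, adjusted p = 1.73e-04). The leukocyte markers, lower than in MEFs in both groups, had the opposite order between CiSCs and MSCs, all 12 being lower in CiSCs (median log2 fold change -5.21). Their part in the levels of Mmp9 in MEFs was not tested.

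Mmp14 encodes the membrane-type enzyme that activates the Mmp2 proenzyme at the cell surface. It was at 885 and 1123 CPM in MEFs, 1087 and 1009 CPM in CiSCs and 481 and 483 CPM in MSCs. MSCs were lower than MEFs (-1.06 ± 0.16, adjusted p = 0.00268) and lower than CiSCs (CiSCs against MSCs 1.12 ± 0.16, adjusted p = 0.00186), while CiSCs and MEFs overlapped (0.06 ± 0.16, adjusted p = 0.779). The other membrane-type genes were far less abundant and moved separately. Mmp15 rose from 0.860 and 0.728 CPM in MEFs to 10.2 and 9.64 CPM in CiSCs (3.63 ± 0.25, adjusted p = 9.17e-05), with 2.82 and 2.55 CPM in MSCs. Mmp16 fell from 8.16 and 6.86 CPM in MEFs to 1.24 and 1.88 CPM in CiSCs (-2.26 ± 0.29, adjusted p = 0.00132). At 2.39 and 2.77 CPM, MSCs were also below MEFs for this gene (adjusted p = 0.00536), but not without the first MSC library (0.0572). Mmp24 was near the limit in MEFs and CiSCs (at most 0.275 CPM in a library) and at 2.62 and 2.51 CPM in MSCs, higher than in MEFs (adjusted p = 0.00223). Mmp17, whose product is tethered by a lipid anchor, stood at 8.81 and 8.42 CPM in MEFs, 2.86 and 3.96 CPM in CiSCs and 29.7 and 27.6 CPM in MSCs, lower in CiSCs than in MEFs (-1.33 ± 0.20, adjusted p = 0.00295) and higher in MSCs (1.73 ± 0.19, adjusted p = 7.08e-04). The other lipid-anchored enzyme gene, Mmp25, had 0.483 to 1.35 CPM in all libraries.

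Mmp11, the stromelysin 3 gene, which is known from stroma undergoing remodelling, rose stepwise from 51.2 and 57.0 CPM in MEFs over 144 and 143 CPM in CiSCs to 469.7 and 572 CPM in MSCs. The groups did not overlap. Its log2 fold changes were 1.40 ± 0.15 in CiSCs against MEFs (adjusted p = 6.07e-04), 3.27 ± 0.16 in MSCs against MEFs (2.88e-05) and -1.86 ± 0.15 in CiSCs against MSCs (1.50e-04). Mmp19, a widely expressed family member, ranged only from 79.2 to 100.5 CPM over the 6 libraries and passed in no comparison. Without the first MEF library it was higher than in MEFs in CiSCs (adjusted p = 0.0317) and in MSCs (0.0373). Mmp23 went from 26.9 and 33.3 CPM in MEFs over 39.9 and 33.4 CPM in CiSCs to 47.7 and 45.3 CPM in MSCs. Only MSCs against MEFs passed (0.63 ± 0.16, adjusted p = 0.0227), and that call was lost without the first (0.0538) or second (0.0573) CiSC library and without the first (0.139) or second (0.104) MSC library. CiSCs against MEFs passed without the second MEF library (0.0300), and CiSCs against MSCs without the first (0.0299) or second (0.0259) MEF library.

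**Figure D3:**
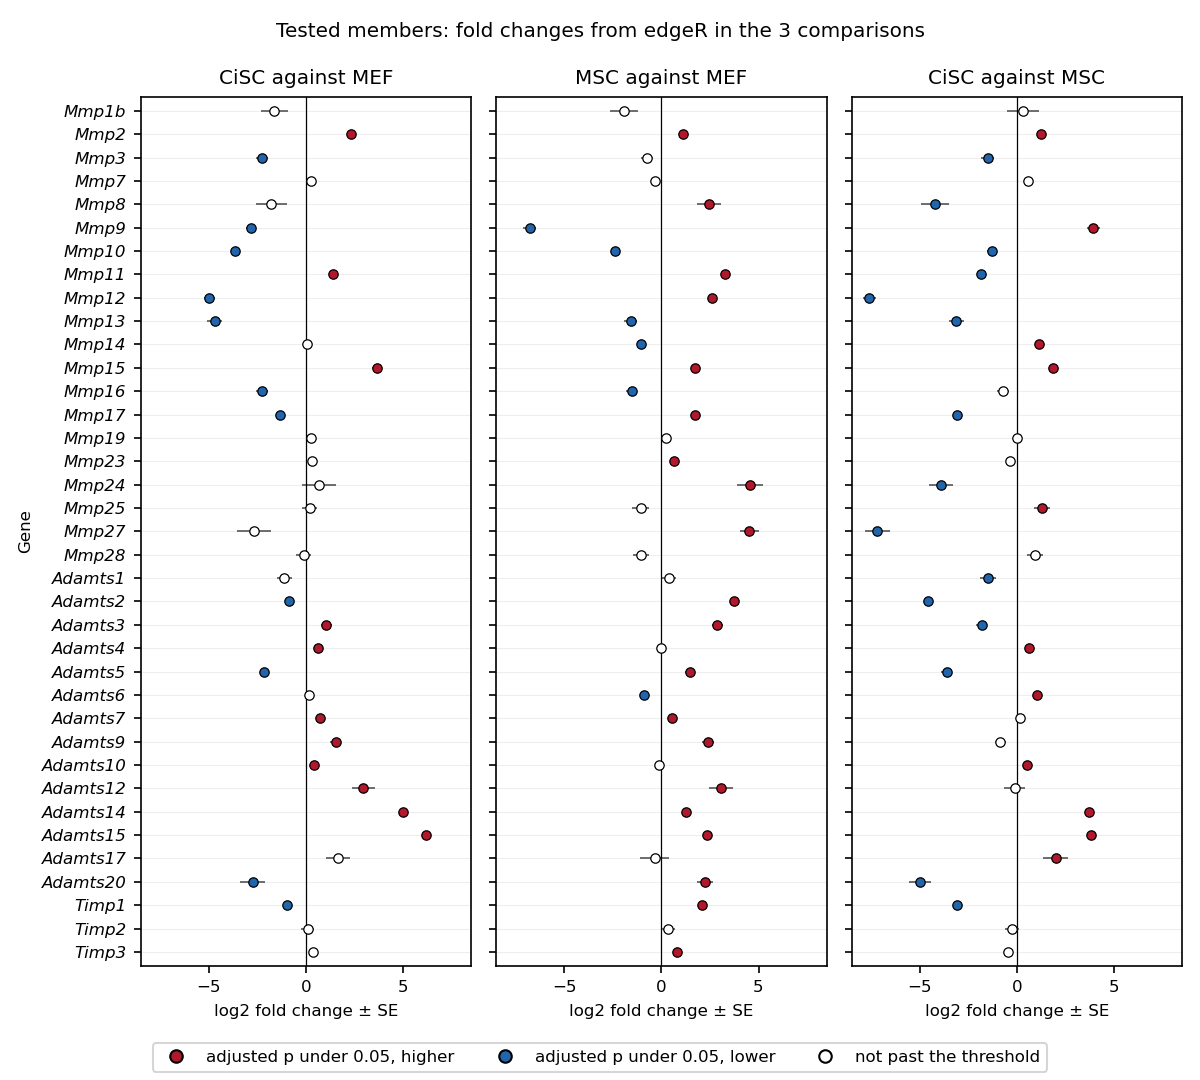
Log2 fold change ± SE from edgeR of the 37 tested genes in the 3 comparisons (red, higher at an adjusted p under 0.05; blue, lower; white, not past the threshold). In CiSCs against MEFs the highest points are Adamts15 at 6.18 and Adamts14 at 5.02, and the lowest are Mmp12 at -4.97 and Mmp13 at -4.71.

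Among the procollagen N-proteinases, which remove the amino-terminal propeptide of fibrillar procollagens, a different gene was the most abundant in CiSCs and in MSCs. Adamts14 stood at 7.21 and 9.85 CPM in MEFs, 275 and 277 CPM in CiSCs and 18.2 and 23.4 CPM in MSCs. Adamts2 stood at 74.2 and 86.7 CPM in MEFs, 42.4 and 45.7 CPM in CiSCs and 1021 and 1088 CPM in MSCs. Scaled to exon length, the mean of Adamts14 in CiSCs was 53.1 CPM per kb and that of Adamts2 was 6.06 CPM per kb, whereas in MSCs Adamts14 was at 4.005 and Adamts2 at 145 CPM per kb. For Adamts14 the log2 fold change was 5.02 ± 0.22 in CiSCs against MEFs (adjusted p = 2.12e-05) and 3.73 ± 0.21 in CiSCs against MSCs (3.86e-05). Adamts14 was also higher in MSCs than in MEFs, by 1.29 ± 0.20 (adjusted p = 0.00305). Adamts2 was lower in CiSCs than in MEFs (-0.87 ± 0.14, adjusted p = 0.00368), although not when tested against a fold of 1.5 (0.0520), and higher in MSCs than in MEFs (3.71 ± 0.15, adjusted p = 1.80e-05). CiSCs against MSCs gave -4.58 ± 0.16 for it (adjusted p = 1.05e-05). Adamts3, the third enzyme of the group, was at 1.28 and 1.98 CPM in MEFs, 3.66 and 3.05 CPM in CiSCs and 12.7 and 11.1 CPM in MSCs, highest in MSCs (2.87 ± 0.28 against MEFs, adjusted p = 4.05e-04). Its rise in CiSCs over MEFs (1.05 ± 0.29, adjusted p = 0.0269) was lost without the first (0.143) or second (0.0787) CiSC library and without the first (0.0660) or second (0.0639) MSC library.

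The fibrillar collagen genes, substrates of these enzymes, were a list of 9 tested genes. In CiSCs against MEFs 3 were higher and 2 lower (median log2 fold change 0.39), and in MSCs against MEFs 4 were higher and 2 lower (median 0.52). Over all tested genes 19.6% were higher and 21.3% lower in the first comparison, and 22.5% higher and 20.0% lower in the second. Col3a1, the collagen III chain gene, stood at 969.5 and 1049 CPM in MEFs, 3593 and 4059 CPM in CiSCs and 14091 and 14357 CPM in MSCs, and rose in both comparisons (adjusted p = 2.08e-04 and 2.29e-05). Col5a3 rose in CiSCs (50.3 and 51.6 CPM against 23.5 and 28.2 CPM in MEFs, adjusted p = 0.00249) and was lower than in MEFs in MSCs (8.67 and 9.51 CPM, adjusted p = 4.52e-04). Col11a2 rose in CiSCs (14.3 and 14.9 CPM against 3.63 and 4.73 CPM, adjusted p = 0.00353), and Col5a2 fell (960.0 and 1081 CPM against 2491 and 2051 CPM, adjusted p = 0.00209).

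The hyalectanases, ADAMTS enzymes that can cleave aggrecan, versican and related proteoglycans, did not move as a block. Adamts15 was far higher in CiSCs than elsewhere, with 0.778 and 0.558 CPM in MEFs, 47.2 and 50.4 CPM in CiSCs and 3.24 and 3.59 CPM in MSCs. This was a log2 fold change of 6.18 ± 0.21 against MEFs (adjusted p = 1.49e-05) and 3.84 ± 0.18 against MSCs (1.91e-05), the largest rise in CiSCs over MEFs among the 37 tested genes. Its direct neighbour on chromosome 9, Adamts8, had between 2 and 11 reads per library. Adamts5, one of the main aggrecanase genes, ran the opposite way, with 197 and 122 CPM in MEFs, 33.2 and 39.5 CPM in CiSCs and 482 and 411 CPM in MSCs. It was lower in CiSCs than in MEFs (-2.14 ± 0.25, adjusted p = 9.93e-04) and than in MSCs (-3.62 ± 0.27, adjusted p = 1.12e-04), and higher in MSCs than in MEFs (1.48 ± 0.25, adjusted p = 0.00386).

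Adamts1, the neighbour of Adamts5 on chromosome 16, stood at 481 and 189.6 CPM in MEFs, 147 and 165 CPM in CiSCs and 449.8 and 427 CPM in MSCs. Its product cleaves versican and is best known from ovulation. The MEF libraries differed 2.54-fold, and the comparisons with MEFs followed them. CiSCs against MEFs gave -1.11 ± 0.39 (adjusted p = 0.0654), with -0.31 without the first MEF library (0.0462), -1.63 without the second (1.43e-05) and a pass by DESeq2 (0.00877). MSCs against MEFs gave 0.39 ± 0.39 (adjusted p = 0.457), with 1.18 without the first MEF library (1.27e-04) and -0.14 without the second (0.333). CiSCs were lower than MSCs (-1.49 ± 0.40, adjusted p = 0.0237), a call lost on leaving out either CiSC or either MSC library. The log2 fold change itself moved little. It was -1.39 without the first CiSC library and -1.58 without the second, and -1.45 without the first MSC library and -1.53 without the second. The CiSC libraries differed 1.13-fold and the MSC libraries 1.05-fold, and the fit shares the spread over all 6 libraries.

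Adamts9, whose product acts at the cell surface and in the matrix, rose from 52.4 and 27.5 CPM in MEFs to 103 and 127 CPM in CiSCs (1.53 ± 0.30, adjusted p = 0.00795) and 217 and 199 CPM in MSCs (2.38 ± 0.31, adjusted p = 0.00131). The rise in CiSCs was lost without the second CiSC library (0.0577). CiSCs against MSCs did not pass (-0.85 ± 0.29, adjusted p = 0.0555) but did without the first (5.36e-04) or second (4.50e-04) MEF library and by DESeq2 (0.0139). Adamts4, the other main aggrecanase gene, was at 34.3 and 28.2 CPM in MEFs, 47.4 and 49.9 CPM in CiSCs and 30.2 and 32.0 CPM in MSCs. CiSCs were higher than MEFs (0.64 ± 0.15, adjusted p = 0.0143), which was lost without the first (0.0844) or second (0.127) CiSC library or the first MSC library (0.0501). They were also higher than MSCs (0.64 ± 0.15, adjusted p = 0.0127), which was lost on leaving out either CiSC or either MSC library. The log2 fold change was then 0.69 without the first CiSC library and 0.61 without the second. It was 0.60 without the first MSC library and 0.69 without the second. Adamts20, known for its part in pigment cell spread, stayed at or below 2.92 CPM, with its highest level in MSCs and 0.0477 and 0.0936 CPM in CiSCs.

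Of 8 tested genes for the hyalectans and their partners, 2 were lower in CiSCs than in MEFs and the other 6 did not pass (median log2 fold change -0.61), and in MSCs against MEFs 3 were higher and 1 lower (median 0.23). The shares over all tested genes were 21.3% lower in CiSCs than in MEFs, and 22.5% higher and 20.0% lower in MSCs than in MEFs. Acan, which encodes aggrecan, had 0.354 and 0.208 CPM in MEFs, 0 reads in both CiSC libraries and 216 and 251 CPM in MSCs (MSCs against MEFs, adjusted p = 1.69e-05). Vcan, the versican gene, was at 506 and 227 CPM in MEFs, 581 and 632 CPM in CiSCs and 353 and 324 CPM in MSCs and passed in no comparison. Cd44, the hyaluronan receptor gene, fell from 669 and 428 CPM in MEFs to 74.6 and 81.3 CPM in CiSCs (-2.82 ± 0.23, adjusted p = 2.07e-04) and was at 158 and 147 CPM in MSCs, also lower than in MEFs (adjusted p = 0.00103). Leukocytes express Cd44 as well, and the leukocyte markers fell in the same libraries. Their part in the fall of Cd44 was not tested.

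Adamts7 and Adamts12, whose products cleave cartilage oligomeric matrix protein, were both higher than in MEFs in the other groups. Adamts12 stood at 17.4 and 4.11 CPM in MEFs, 68.6 and 98.4 CPM in CiSCs and 101 and 79.2 CPM in MSCs. It rose by 2.95 ± 0.61 in CiSCs (adjusted p = 0.00947) and by 3.07 ± 0.61 in MSCs (0.00787), although not in CiSCs without the second CiSC library (0.0518) nor in MSCs without the first MSC library (0.0511). CiSCs and MSCs overlapped (-0.11 ± 0.55, adjusted p = 0.895). Adamts7 was at 31.3 and 29.1 CPM in MEFs, 48.1 and 49.96 CPM in CiSCs and 43.0 and 46.1 CPM in MSCs. Its rise over MEFs was 0.70 ± 0.13 in CiSCs (adjusted p = 0.00588), lost without the first (0.0518) or second (0.0750) CiSC library. The rise in MSCs was 0.56 ± 0.13 (adjusted p = 0.0133), lost without the first (0.0539) or second (0.0584) CiSC library or the first (0.0774) or second (0.115) MSC library.

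Adamts6 and Adamts10, linked to fibrillin microfibrils, changed little between CiSCs and MEFs. Adamts10 stood at 66.8 and 79.0 CPM in MEFs, 101 and 95.1 CPM in CiSCs and 64.8 and 69.9 CPM in MSCs. It passed narrowly in CiSCs against MEFs (0.43 ± 0.14, adjusted p = 0.0480), and lost that call without the first (0.265) or second (0.194) CiSC library and without the first (0.109) or second (0.113) MSC library. Median-ratio size factors (0.0567), no filter on low counts (0.0621) and a fit of only the groups compared (0.105) also ended it. It was higher in CiSCs than in MSCs (0.54 ± 0.14, adjusted p = 0.0202), lost on leaving out either CiSC or either MSC library. The log2 fold change was then 0.51 without the first CiSC library and 0.59 without the second. It was 0.49 without the first MSC library and 0.60 without the second. Adamts6 was at 70.7 and 46.7 CPM in MEFs, 62.4 and 66.5 CPM in CiSCs and 31.6 and 32.1 CPM in MSCs. MSCs were lower than MEFs (-0.88 ± 0.21, adjusted p = 0.0157), lost without the first (0.111) or second (0.103) MSC library. CiSCs were higher than MSCs (1.02 ± 0.21, adjusted p = 0.00859), lost without the second CiSC library (0.0581) or the first (0.0736) or second (0.0701) MSC library. CiSCs against MEFs passed only without the first MEF library (0.44, adjusted p = 0.0102). Among 10 elastic fibre and microfibril genes, 4 were higher and 4 lower in CiSCs than in MEFs (median 0.26), and 5 were higher and 5 lower in MSCs than in MEFs (median -0.13). Over all tested genes 19.6% were higher and 21.3% lower in the CiSC comparison, and 22.5% higher and 20.0% lower in the MSC comparison. Fbn1, the fibrillin 1 gene, rose from 672 and 344 CPM in MEFs to 1159 and 1482 CPM in CiSCs (adjusted p = 0.0158).

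Of the inhibitors, only Timp1 passed in all 3 comparisons. Timp1, an inducible inhibitor of most soluble MMPs, stood at 149 and 164 CPM in MEFs, 87.7 and 70.2 CPM in CiSCs and 622 and 706 CPM in MSCs, with no overlap between groups. It was lower in CiSCs than in MEFs (-0.99 ± 0.16, adjusted p = 0.00373), higher in MSCs than in MEFs (2.08 ± 0.16, adjusted p = 1.74e-04) and lower in CiSCs than in MSCs (-3.07 ± 0.17, adjusted p = 3.88e-05). Timp3, which binds to the matrix and also inhibits aggrecanases, was at 1011 and 875 CPM in MEFs, 1142 and 1249 CPM in CiSCs and 1695 and 1537 CPM in MSCs. MSCs were higher than MEFs (0.78 ± 0.15, adjusted p = 0.00700), lost without the first MSC library (0.0766). CiSCs against MEFs (0.34 ± 0.15, adjusted p = 0.113) passed without the first MEF library (0.0170). CiSCs against MSCs (-0.44 ± 0.15, adjusted p = 0.0564) passed without the first (0.00624) or second (0.00493) MEF library and by DESeq2 (0.0127).

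Timp2, which both inhibits MMPs and helps Mmp14 to activate the Mmp2 proenzyme, was at 1109.6 and 498 CPM in MEFs, 793 and 915 CPM in CiSCs and 1074 and 942 CPM in MSCs. The CiSC and MSC levels lay between those of the MEF libraries, and no comparison passed. The direction against MEFs turned with the MEF library. CiSCs against MEFs gave 0.75 without the first MEF library (adjusted p = 0.00255) and -0.38 without the second (0.0447), and MSCs against MEFs 0.99 without the first (7.06e-04) and -0.14 without the second (0.401). Timp4 had 7 reads in MSCs and 1 in CiSCs. Among the tested members, 4 were more than 2-fold apart between the MEF libraries on the log2 CPM scale (10.8%, against 9.27% of all tested genes). Between the CiSC libraries 2 were (5.41%, against 3.12%), and between the MSC libraries 0 were (against 2.72%).

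Levels of different genes were compared per kb of exon, with lengths from GENCODE M21. In MEFs the leading members were Mmp14 (211 and 268 CPM per kb), Timp2 (299 and 134), Timp3 (214 and 185) and Timp1 (168 and 184), and the values of Timp1 lay below those of Mmp14 and Timp3, while the other ranges overlapped. In CiSCs Mmp2 led, at 331 and 350.2 CPM per kb, above Timp3 (242 and 265), Mmp14 (259.8 and 241) and Timp2 (214 and 247), which overlapped. In MSCs Timp1 led, at 700.3 and 795 CPM per kb, above Timp3 (359 and 325), Timp2 (289.5 and 254) and Mmp11 (205 and 249.9). Summed over each family, Timp genes reached 681 and 504 CPM per kb in MEFs, 554 and 590.3 in CiSCs and 1349 and 1375 in MSCs. The Mmp genes summed to 435 and 572 CPM per kb in MEFs, 769 and 757 in CiSCs and 647 and 718 in MSCs, and the Adamts genes to 172 and 99.7, 166 and 179, and 353 and 348. The ratio of the Timp sum to the sum of both enzyme families was 1.12 and 0.751 in MEFs, 0.592 and 0.631 in CiSCs and 1.35 and 1.29 in MSCs. These are sums of RNA levels, led by a few genes, and say nothing of protein or enzyme activity.

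**Figure D4:**
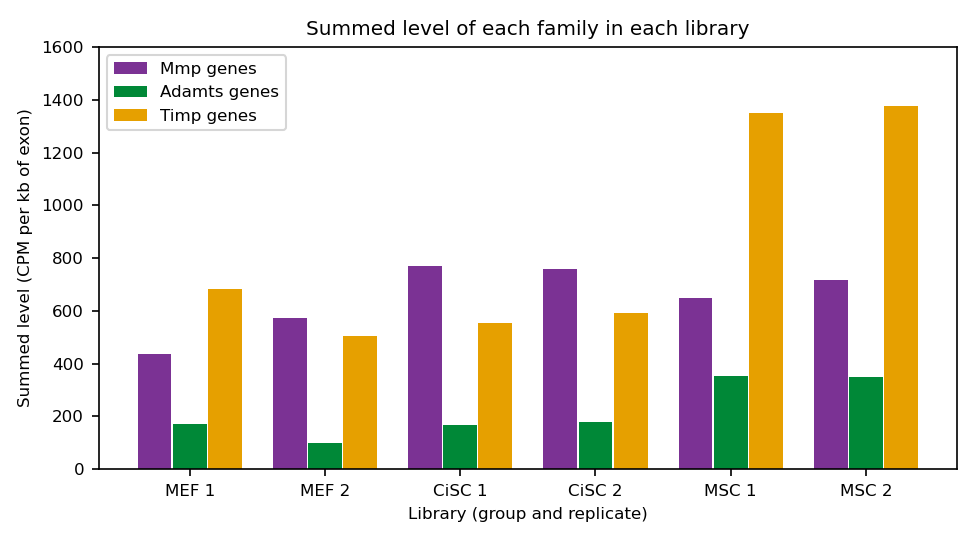
Summed level of the Mmp (purple), Adamts (green) and Timp (orange) genes in each library, in CPM per kb of exon, 1 bar per family. The Timp bar is the highest in both MSC libraries (1349 and 1375), and the Mmp bar is the highest in both CiSC libraries (769 and 757).

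The plasminogen system, a serine proteinase cascade that activates several MMP proenzymes, had 6 tested genes. In CiSCs against MEFs 2 were higher and 3 lower (median log2 fold change -1.04), and in MSCs against MEFs again 2 were higher and 3 lower (median -0.32), but in opposite directions for 4 of the genes. The shares over all tested genes were 19.6% higher and 21.3% lower in CiSCs, and 22.5% higher and 20.0% lower in MSCs. Plat, the tissue activator gene, stood at 153 and 136 CPM in MEFs, 417 and 387 CPM in CiSCs and 99.8 and 113 CPM in MSCs (CiSCs against MEFs 1.48 ± 0.14, adjusted p = 3.51e-04). Serpine2, a serine proteinase inhibitor gene, had its highest level in CiSCs, with 128 and 40.3 CPM in MEFs, 688 and 732 CPM in CiSCs and 16.003 and 13.7 CPM in MSCs (CiSCs against MSCs 5.58 ± 0.57, adjusted p = 4.21e-04). Plau, the urokinase gene, was at 131 to 202 CPM in all libraries and passed in no comparison.

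Of 11 tested membrane regulators, activators and clearance receptors of these enzymes, 4 were higher and 4 lower in CiSCs than in MEFs (median 0.53), and 4 higher and 5 lower in MSCs than in MEFs (median -0.20). Reck, a membrane-bound MMP inhibitor, was at 53.7 and 27.4 CPM in MEFs, 65.7 and 78.4 CPM in CiSCs and 34.4 and 36.2 CPM in MSCs, higher in CiSCs than in MSCs (1.03 ± 0.30, adjusted p = 0.0340). Furin, a convertase that activates membrane-type MMPs and ADAMTS proenzymes, fell from 276 and 296 CPM in MEFs to 129 and 122 CPM in CiSCs (-1.19 ± 0.12, adjusted p = 5.18e-04). Of 9 catalytic ADAM genes, 1 was higher and 5 were lower in CiSCs than in MEFs (median -0.60). Adam19 rose from 142 and 86.4 to 508 and 552 CPM (adjusted p = 7.05e-04), and Adam8, a leukocyte-enriched member, fell from 603 and 750.4 to 6.86 and 6.99 CPM (adjusted p = 1.49e-05) in the libraries in which the leukocyte markers fell. Of 7 ADAMTS-like genes, 1 was higher and 3 lower in CiSCs than in MEFs (median -0.46). Of 7 genes for cathepsins and their inhibitor cystatin C, 1 was higher and 5 lower (median -1.91). The leukocyte markers were lower in the same CiSC libraries, and their part in these falls was not tested. Of 5 tested astacin proteinases and enhancers 1 was higher and 1 lower (median 0.52). Over all tested genes 19.6% were higher and 21.3% lower in CiSCs than in MEFs, and 22.5% higher and 20.0% lower in MSCs than in MEFs. Tll2, an astacin gene, had 0.202 and 0 CPM in MEFs and 18.9 and 18.7 CPM in CiSCs.

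Basement membrane genes, substrates of the gelatinases, were mostly higher than in MEFs. Of 16 tested genes, 11 were higher and 1 lower in CiSCs (median log2 fold change 0.95), and all 16 were higher in MSCs (median 1.74). Over all tested genes 19.6% were higher and 21.3% lower in CiSCs than in MEFs, and 22.5% were higher and 20.0% lower in MSCs. In CiSCs against MSCs 2 of the 16 were higher and 11 lower (median -1.01). Nid1, the nidogen 1 gene, stood at 716 and 423 CPM in MEFs, 4592 and 4867 CPM in CiSCs and 997 and 955.5 CPM in MSCs (CiSCs against MEFs 3.05 ± 0.27, adjusted p = 2.74e-04). Col4a3 and Col4a4, genes of minor collagen IV chains, were at most 0.739 CPM in MEF and CiSC libraries and between 169 and 416 CPM in MSCs. Of 10 AP-1 and NF-kB subunit genes, 7 were lower in CiSCs than in MEFs and the other 3 did not pass (median -0.98), and in MSCs against MEFs 3 were higher and 3 lower (median -0.31). Fosl1, an AP-1 subunit gene, stood at 33.2 and 26.03 CPM in MEFs, 7.82 and 5.02 CPM in CiSCs and 12.3 and 13.5 CPM in MSCs, and Relb, an NF-kB subunit gene, at 54.3 and 78.1, 7.61 and 8.58, and 11.8 and 13.9 CPM. Junb stood at 217 and 319 CPM in MEFs, 98.5 and 82.5 CPM in CiSCs and 174 and 171 CPM in MSCs. Fos was at 25.4 and 31.9 CPM in MEFs and 27.8 and 30.5 CPM in CiSCs (0.03 ± 0.20, adjusted p = 0.935), and at 203 and 147 CPM in MSCs. The leukocyte markers, which include no subunit gene of this list, were lower in the same CiSC libraries (12 of 12, median -8.65). Neither their part in these falls nor any bearing of these genes on the Mmp levels was tested.

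Adamts2, Adamts5, Adamts20, Mmp12, Mmp17 and Timp1 were each lower than MEFs in CiSCs and higher than MEFs in MSCs, in comparisons that share the MEF libraries. Each was also lower in CiSCs in the direct comparison with MSCs. Adamts20 lost its call against MEFs without the first (0.0919) or second (0.0573) CiSC library, and in MSCs without the first MSC library (0.0690). In the other direction, Adamts14, Adamts15, Mmp15 and Mmp2 were higher in CiSCs than in both other groups, and so were Adamts4 and Adamts10 within the limits given above.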

How the data were processed

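The authors deposited 1 table per library with expected counts per Entrez Gene identifier, of which 42.0% to 43.8% in each library were not whole numbers. Per the submitters' processing notes, the tools included HISAT and the genome build was mm9. The counting program, annotation and strand are not given in the sources used here. Of 20007 identifiers, 18891 matched a symbol in RefSeq for GRCm38.p6, another build, so no gene coordinates are given. Only the promoter stretches carry coordinates, those of that assembly. Expected counts were rounded, filtered (filterByExpr), scaled (TMM) and fitted with edgeR 4.0.16 in R 4.3.3, 1 mean per group, 6 libraries and 3 residual degrees of freedom. Calls are at an adjusted p under 0.05. CPM use unrounded counts. DESeq2 1.42.0 was an alternative. Where a library was left out, the lone library of its group was assumed to vary like the others. The procedure was also run on simulated counts, with means and spreads taken from these libraries and far fewer genes changed than were called here. No result here rests on that run. Library totals make 1 read worth 0.0468 to 0.0543 CPM, and 0 reads in a group allow up to 0.0709 (CiSCs) to 0.0806 CPM (MSCs), counting error only, since reads carried no molecular identifiers.

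The members and gene lists were chosen with earlier results of these data known. Per-library values were to be given for the 24 members with the highest group means among the 27 that reached 10 CPM, and for members present in 1 group. From lists, up to 4 genes with the smallest adjusted p were to be named. Mmp10, Mmp13, Mmp15, Mmp16, Mmp1b, Mmp8, Mmp25, Adamts3, Adamts20, Plau, Reck, Vcan and Fbn1 were added after their values had been seen. Reads of overlapping genes on opposite strands cannot be told apart without a known strand setting, which touches Mmp1b, Mmp7, Mmp12, Mmp19, Mmp24, Mmp28, Adamts7, Adamts8, Adamts9 and Timp4.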

Additional observations from a re-analysis of the deposited data

How the results depend on the processing

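The alternatives were each library left out, a block for the replicate number, a fit of only the groups compared, median-ratio size factors, DESeq2, no or a stricter filter (5 CPM in 2 libraries), a test against a fold of 1.5 and unrounded counts. With libraries left out, the genes higher in CiSCs than in MEFs numbered 5 to 15, those lower 10 to 14, those higher in MSCs than in MEFs 14 to 23, those lower 3 to 8, those higher in CiSCs than in MSCs 6 to 12 and those lower 13 to 18. Against a fold of 1.5, 7 genes were higher in CiSCs than in MEFs and 7 were higher than in MSCs. The other settings kept each of the 6 counts within 1.5 times its value. With the replicate block, 10 genes were higher and 11 lower in CiSCs against MEFs, 20 and 6 in MSCs against MEFs, and 9 and 15 in CiSCs against MSCs. The block ended the call of Adamts10 in CiSCs against MEFs (adjusted p = 0.0852) and those of Adamts17 (0.0889) and Mmp25 (0.0869) in CiSCs against MSCs. The labels do not state that the replicate number marks a batch or a pair, so the numbers were not taken as pairs. Deviations of same-numbered libraries correlated at -0.21 (MEFs and CiSCs), 0.14 (MEFs and MSCs) and -0.13 (CiSCs and MSCs). With 2 libraries a group, these values cannot show whether same-numbered libraries came from the same culture. Calls that held in every alternative that tested them were 5 of 11 and 9 of 11 (higher and lower, CiSCs against MEFs), 13 of 20 and 3 of 6 (MSCs against MEFs), and 6 of 11 and 13 of 15 (CiSCs against MSCs).

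Of 1008 log2 fold changes of the 24 members with the highest levels under the alternatives, 903 kept direction and side of the threshold and 16 changed sign. None of the 16 was called with all libraries, and 1, that of Timp2 in CiSCs against MEFs without the second MEF library, was called under its alternative. With libraries left out, the values that crossed 0 in CiSCs against MEFs ranged from -0.13 to 0.44 for Adamts6, -0.13 to 0.24 for Mmp14, -0.0048 to 0.58 for Mmp7 and -0.38 to 0.75 for Timp2. In MSCs against MEFs they ranged from -0.14 to 1.18 for Adamts1, -0.263 to 0.0100 for Adamts10, -0.14 to 0.11 for Adamts4 and -0.14 to 0.99 for Timp2. In CiSCs against MSCs they ranged from -0.397 to 0.14 for Adamts12 and -0.022 to 0.041 for Mmp19. The lowest and highest of these came from leaving out the MEF libraries in each comparison with MEFs. The stricter filter also changed the sign of Adamts4 in MSCs against MEFs (0.016) and of Mmp19 in CiSCs against MSCs (-0.0090). The cause was not tested.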
